A study of Mus musculus with 10 samples.

Results

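The 4 ATAC-seq libraries of cells sorted on 4C DNA content were compared between genotypes, with 2 libraries from Smarca5 conditional knockout (cKO) testes and 2 from wild-type testes, out of 10 samples in the series. The cKO genotype is Smarca5 fl/delta; Ddx4-Cre+, in which 1 floxed and 1 already deleted allele are combined with a Cre that acts in germ cells. The other genotype is wild type C57BL6, so Cre and the floxed allele are present in the cKO libraries alone, and ages were not given. Each library was made from 50000 cells stained with Hoechst and sorted by flow cytometry, which the labels call pachytene spermatocytes. A 4C sort also takes other cells with replicated DNA, and in sorted bulk cells a change in the mix of cells and a change in signal per cell cannot be told apart. The labels do not state separate animals for the replicates, and p-values measure only the spread between these libraries. The other samples of the series are 4 ATAC libraries of cKIT+ cells, which mark an earlier stage, and 2 single-cell RNA samples of cKO testis.

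SMARCA5 (SNF2H) is a catalytic subunit of ISWI complexes, which slide and space nucleosomes. ATAC-seq uses the Tn5 transposase, which inserts adapters where DNA is not covered by nucleosomes, so a peak marks accessible chromatin. In pachytene, homologous chromosomes are fully synapsed, the X and Y are silenced as the sex body, and a large set of genes for spermiogenesis is switched on from the autosomes.

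All comparisons were made on chromosomes 1 to 19. Peaks of the 4 lists that overlapped by at least 1 bp were merged into 89206 regions, of which 28050 had a peak in every library and are called shared. The fold of a peak is its enrichment over nearby background in that library, as the authors' peak caller gave it. The promoters below, from RefSeq on GRCm38.p6 (250 bases before to 50 bases after the annotated start, on the strand of the gene), belong to the start regions on which the gene-level results turn. They are the 2 gene starts with the largest difference in each direction, starts with a peak in 1 genotype alone, and the histone gene start with the largest difference. Capitals mark matches on either strand to 10 motifs. The cAMP response element was searched as TGACGTCA and the NRF1 motif as TGCGCANG. The ETS motif was searched as CCGGAAG. The SP/KLF motif was GGGCGGG. The MYB motif was ACNGTT. The RFX motif was GTTGCC, and the CCAAT box is named by its letters. The E-box was CACGTG. The T-box motif was AGGTGTG, and the CTCF core was the remaining one. Ceacam10 (chr7:24776917-24777216, + strand) and Lmcd1 (chr6:112273508-112273807, + strand) had the higher fold in cKO. 1700021F07Rik (chr2:173522342-173522641, + strand) and Cpne5 (chr17:29237741-29238040, - strand) had the lower fold in cKO. H2bl1 (chr13:98984516-98984815, - strand) and H1f7 (chr15:98257258-98257557, - strand) had a peak in both cKO libraries and in neither wild-type library. Piwil4 (chr9:14740623-14740922, - strand) had one in both wild-type libraries and in neither cKO library. H3c11 (chr13:21783348-21783647, - strand) is a gene of the large histone cluster.
Ceacam10: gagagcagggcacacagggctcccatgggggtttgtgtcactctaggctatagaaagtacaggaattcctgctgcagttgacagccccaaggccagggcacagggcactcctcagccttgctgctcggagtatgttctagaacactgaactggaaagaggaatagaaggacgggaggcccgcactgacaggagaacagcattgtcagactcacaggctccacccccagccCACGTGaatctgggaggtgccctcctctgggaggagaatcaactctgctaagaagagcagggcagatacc
Lmcd1: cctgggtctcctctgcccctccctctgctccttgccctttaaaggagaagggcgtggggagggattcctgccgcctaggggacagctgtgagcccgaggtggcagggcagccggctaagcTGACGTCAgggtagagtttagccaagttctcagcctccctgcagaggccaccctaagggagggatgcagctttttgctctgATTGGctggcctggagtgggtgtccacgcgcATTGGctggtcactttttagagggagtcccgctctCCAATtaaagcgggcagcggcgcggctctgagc
1700021F07Rik: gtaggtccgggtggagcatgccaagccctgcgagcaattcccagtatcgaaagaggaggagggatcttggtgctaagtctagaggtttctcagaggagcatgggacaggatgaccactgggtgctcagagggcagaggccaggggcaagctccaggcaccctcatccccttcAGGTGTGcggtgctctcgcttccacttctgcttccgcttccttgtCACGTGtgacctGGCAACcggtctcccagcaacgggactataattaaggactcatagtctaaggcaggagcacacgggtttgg
Cpne5: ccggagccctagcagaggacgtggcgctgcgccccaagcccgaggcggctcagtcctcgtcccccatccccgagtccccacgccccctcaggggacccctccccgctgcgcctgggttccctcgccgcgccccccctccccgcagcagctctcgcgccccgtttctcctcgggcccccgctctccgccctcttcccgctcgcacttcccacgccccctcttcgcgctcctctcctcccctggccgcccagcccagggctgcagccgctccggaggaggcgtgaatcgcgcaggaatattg
H2bl1: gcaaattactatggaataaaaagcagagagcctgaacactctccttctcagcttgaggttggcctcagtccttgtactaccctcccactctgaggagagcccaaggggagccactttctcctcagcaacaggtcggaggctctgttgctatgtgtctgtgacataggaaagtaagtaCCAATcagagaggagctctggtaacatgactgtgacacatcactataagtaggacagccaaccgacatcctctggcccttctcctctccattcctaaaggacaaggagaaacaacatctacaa
H1f7: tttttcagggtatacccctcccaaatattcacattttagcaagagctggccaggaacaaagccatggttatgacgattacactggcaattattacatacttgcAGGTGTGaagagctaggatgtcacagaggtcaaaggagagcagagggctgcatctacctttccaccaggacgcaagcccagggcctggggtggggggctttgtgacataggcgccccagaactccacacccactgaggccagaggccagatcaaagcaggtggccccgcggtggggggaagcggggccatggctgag
Piwil4: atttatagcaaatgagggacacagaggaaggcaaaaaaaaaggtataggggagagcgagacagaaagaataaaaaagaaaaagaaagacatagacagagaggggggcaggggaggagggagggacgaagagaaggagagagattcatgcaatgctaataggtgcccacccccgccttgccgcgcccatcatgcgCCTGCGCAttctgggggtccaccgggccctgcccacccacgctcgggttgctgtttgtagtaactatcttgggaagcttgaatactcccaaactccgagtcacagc
H3c11: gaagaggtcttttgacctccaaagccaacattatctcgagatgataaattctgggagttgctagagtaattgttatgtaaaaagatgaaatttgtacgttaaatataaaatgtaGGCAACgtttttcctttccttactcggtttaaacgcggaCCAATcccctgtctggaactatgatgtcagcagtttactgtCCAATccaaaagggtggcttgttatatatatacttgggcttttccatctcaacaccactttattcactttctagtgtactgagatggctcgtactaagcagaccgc

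The Lmcd1 promoter held a cAMP response element, present in 1.83% of all 31396 autosomal promoter windows of this length, and 3 CCAAT boxes, of which at least 1 was present in 37.3%. The 1700021F07Rik promoter held an RFX motif (12.2% of all windows), an E-box (7.14%) and a T-box motif (5.86%), and the motifs did not overlap. The Ceacam10 promoter held an E-box, and the Piwil4 promoter held an NRF1 motif (5.84%). The Cpne5 promoter, with a GC content of 74.7% and 32 CpG, held none of these letters. The H3c11 promoter had 2 CCAAT boxes and an RFX motif at a GC content of 39.3%. A match describes the letters and not a bound factor.

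The cKO libraries had more autosomal peaks, and these were on average weaker and narrower. cKO replicates 1 and 2 had 51920 and 55233 autosomal peaks, against 47736 and 49488 in wild-type replicates 1 and 2. Both cKO libraries stood above both wild-type libraries (log2 difference 0.14, two-sided exact permutation p = 0.333, and 0.333 is the lowest p that this design allows). This held for the autosomes only. On all chromosomes together the lists held 54059 and 57788 peaks in cKO and 55756 and 59417 in wild type, so the genotypes overlapped. The median width was 340 and 361 bp in cKO, against 368 and 377 bp in wild type (log2 difference -0.09, exact permutation p = 0.333). Peaks covered 23202074 and 25719191 bp in cKO and 22326042 and 23645126 bp in wild type, ranges that overlap (log2 difference 0.09, exact permutation p = 0.667). The 90th percentile of fold was 6.49 and 6.53 in cKO and 7.30 and 7.18 in wild type. Within 500 bp of an annotated gene start lay 23.8% and 22.8% of the cKO peaks, against 24.98% and 24.4% of the wild-type peaks (log2 difference -0.08, exact permutation p = 0.333).

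Of these differences, those in peak number, width and the share at gene starts did not hold among the stronger peaks. When peaks were kept only from a −log10 q of 5 upward, the lists held 17091 and 18380 peaks in cKO and 18285 and 19216 in wild type, so the cKO lists were no longer the longer ones (log2 difference -0.081, exact permutation p = 0.667). With only those peaks the log2 differences turned to -0.077 for covered length, 0.012 for median width and 0.047 for the share at gene starts. Read numbers were not analysed here, so the depth of the libraries is unknown. The X chromosome, outside this comparison, held 3.63% and 4.08% of all peaks in cKO and 12.9% and 14.6% in wild type. Its part in the length of the autosomal lists was not tested.

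Regions with a peak in both libraries of 1 genotype alone were few. Of the 89206 regions, 4314 had a peak in both cKO libraries and in neither wild-type library (4.84%). Another 2361 had a peak in both wild-type libraries and in neither cKO library (2.65%). Regions with a peak in a single library were far more frequent, at 40387 or 45.3% of all, with 10196 and 12002 in the cKO libraries and 9533 and 8656 in the wild-type libraries. A mixed pair of 1 cKO and 1 wild-type library alone shared 1037 to 2032 regions. The pair of cKO libraries shared more than any mixed pair, and so did the pair of wild-type libraries. From a −log10 q of 5 upward the order of the genotypes turned, with 780 regions in both cKO libraries alone and 1436 in both wild-type libraries alone. There, a region counts as absent where the other genotype has only a weaker peak.

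**Figure D1:**
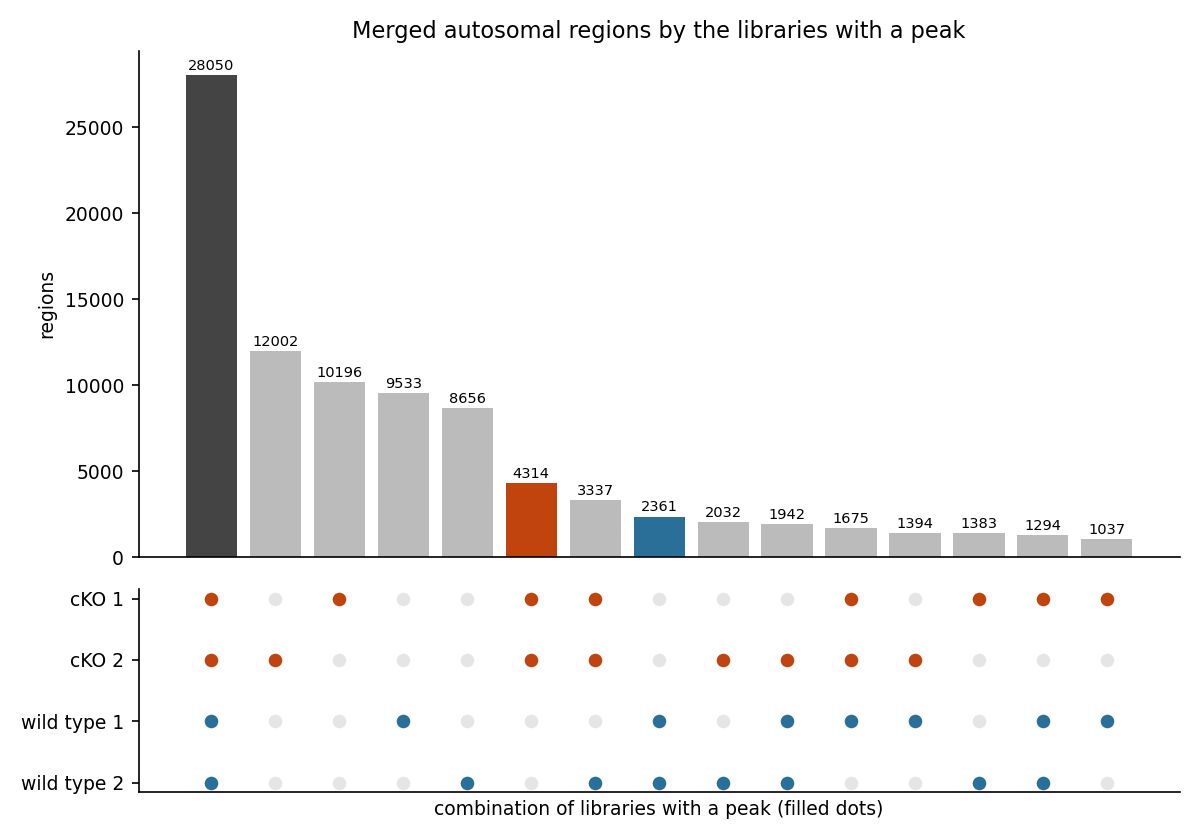
Number of merged autosomal regions (vertical axis) for each combination of the 4 libraries with a peak (filled dots below; cKO in orange, wild type in blue). The combination of all 4 libraries was the most frequent, with 28050 regions, and 4314 regions were found in both cKO libraries alone, against 2361 in both wild-type libraries alone.

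Absence from the other genotype was tied to low fold. Of regions with a peak in both cKO libraries, 23.0% were absent from both wild-type libraries where the mean cKO fold was 3 to 4, and 0.187% where it was 6 to 8. Of regions with a peak in both wild-type libraries, 14.7% were absent from both cKO libraries at a mean wild-type fold of 3 to 4, and 0.899% at 6 to 8. At a mean fold of 8 and over, 1 of 1727 regions of the cKO libraries was absent from wild type, and 4 of 2898 regions of the wild-type libraries were absent from cKO. The balance between genotypes therefore changed along the scale. Under a fold of 5 the share absent was higher for regions of cKO in each of the 3 bins, and from 5 upward it was higher for regions of wild type in each of the 3 bins. The median fold of regions in 1 genotype alone was 3.48 for cKO and 3.45 for wild type, against 4.84 at shared regions, 3.16 at regions of a single library and 3.46 over all regions.

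**Figure D2:**
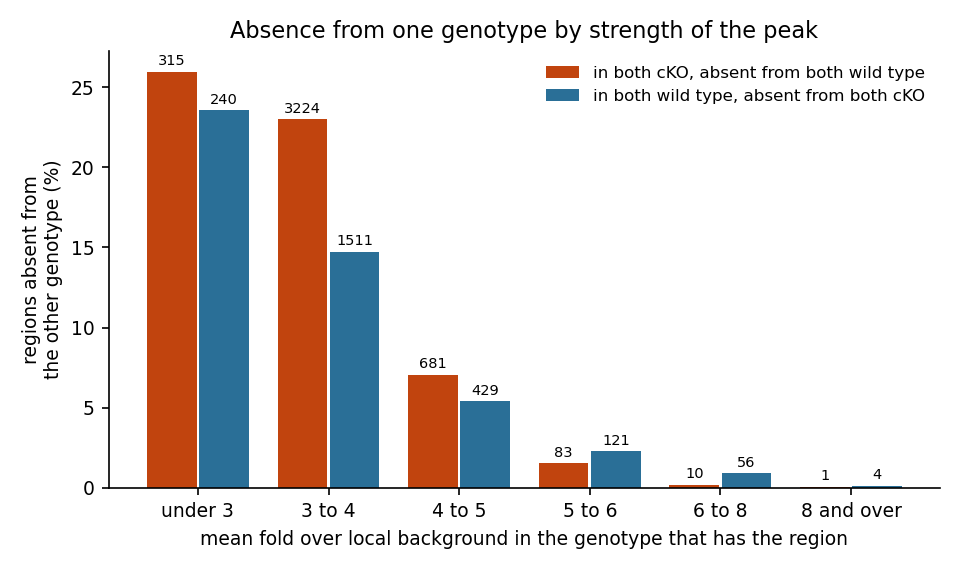
Percent of regions with a peak in both libraries of one genotype that had none in either library of the other (vertical axis), by the mean fold in the genotype that has them (horizontal axis); orange bars are regions of cKO, blue bars regions of wild type, and numbers above bars count the absent regions. The share was 23.0% for cKO and 14.7% for wild type at a fold of 3 to 4, and 0.187% and 0.899% at 6 to 8.

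The strongest regions of wild type alone were short and lay away from gene starts. Within Ror2 (a receptor tyrosine kinase of Wnt5a signalling), chr13:53269834-53269989 had no peak in either cKO library and a fold of 14.7 and 15.6 in the wild-type libraries. No other region in both libraries of 1 genotype alone had a mean fold as high. Within Vwa3a, chr7:120754790-120754950 had no peak in cKO and folds of 8.72 and 8.74 in wild type. Regions within Chst11 (a chondroitin sulfotransferase), Ctnna2 (alpha-catenin of neurons) and Far2 (a fatty acyl-CoA reductase) had wild-type folds of 7.05 to 8.30. The other 5 of the 10 strongest lay outside annotated genes, on chromosomes 4, 5, 9, 10 and 14, and the 10 regions were 136 to 580 bp long.

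The strongest regions of cKO alone had lower folds. The highest mean fold in this class was 8.44, at a region whose folds are not given here. A region outside genes on chromosome 15 (chr15:87967974-87968092) had folds of 7.98 and 7.69 in cKO and no peak in wild type. Regions within Nars2 (the mitochondrial asparaginyl-tRNA synthetase) had 7.08 and 5.64, and within Notch2 (a Notch receptor) 6.27 and 6.09. Predicted gene Gm7895 and Tmem241 held 2 further regions, and 4 more lay outside annotated genes.

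Of all regions, 15.5% lay at a gene start. Starts were not annotated here on chromosome 18, whose regions are left out of these shares. Of regions in both cKO libraries alone 6.11% lay at a gene start, and of regions in both wild-type libraries alone 4.50%, against 39.6% of shared regions and 3.11% of regions in a single library. In gene bodies lay 53.2% of the class of cKO and 55.2% of that of wild type, against 49.7% of all regions, 63.8% of regions in a single library and 27.4% of shared regions. By chromosome, regions in both cKO libraries alone made up 4.06% (chromosome 1) to 5.61% (chromosome 13) of the regions, and those in both wild-type libraries alone 2.12% (chromosome 19) to 3.04% (chromosome 14).

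Gene starts with a peak in both cKO libraries alone were led by predicted genes and a histone gene. The 10 with the highest fold included 8 predicted genes with Gm symbols, H2bl1 (a histone H2B-like gene) and 4933402J07Rik. H2bl1 had folds of 5.46 and 4.99 in the cKO libraries and no peak in wild type. Gm16506, Gm8180 and Gm8256, on chromosome 14 between 43 and 45 Mb, lie among related copies, where the authors' handling of reads that map to several places was not given. 4933402J07Rik had folds of 4.50 and 4.47, and its transcript stood at 155 and 249.6 CPM in the 2 cKO testis RNA samples. Those samples hold all testis cells and have no wild-type counterpart.

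Gene starts with a peak in both wild-type libraries alone were also mostly predicted genes, 7 of the 10 with the highest fold, beside Neurog2, Arid5b and Rd3. Neurog2, a proneural basic helix-loop-helix factor, had no peak in cKO and folds of 5.84 and 5.52 in wild type, at a region that ends 312 bp before the start. Arid5b, an AT-rich interaction domain cofactor, had folds of 4.58 and 5.40 in wild type, and Rd3, a guanylate cyclase regulator of photoreceptors, 4.49 and 4.83. Neurog2 RNA was near 0 in cKO testis, at 0.02 and 0.03 CPM, while Arid5b stood at 20.4 and 15.7 CPM. Over all genes of these classes, the median RNA level was 2.32 and 2.00 CPM in the 2 samples for 168 genes with a start in both cKO libraries alone. It was 1.30 and 1.10 CPM for 61 genes with a start in both wild-type libraries alone, and 15.6 and 13.8 CPM for 10987 genes with a shared start.

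The Smarca5 locus had a start peak in all 4 libraries and a gene-body peak in wild type alone. The start region (chr8:80739074-80739948) had folds of 8.15 and 8.33 in cKO and 8.25 and 8.17 in wild type, with a log2 change of 0.09 ± 0.09 (SE, 2 libraries each, limma adjusted p = 0.704). Its start peaks were 786 and 822 bp wide in cKO and 871 and 860 bp in wild type. Within the gene body, chr8:80731720-80732535 had no peak in either cKO library and folds of 3.02 and 3.10 in the wild-type libraries. The wild-type peaks there were 750 and 801 bp wide. The position of the deleted part of the gene was not given in the sources used here, and whether it covers this region was not tested.

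At the 28050 shared regions, median fold and width were close between genotypes and no region passed the threshold. The median fold was 4.66 and 4.77 in cKO and 4.95 and 5.02 in wild type (log2 difference -0.08, exact permutation p = 0.333). After log2 fold was centred on each library's median over shared regions, limma called 0 regions higher and 0 lower in cKO at a Benjamini-Hochberg adjusted p under 0.05. At an unadjusted p under 0.05 there were 2270 higher and 1987 lower regions, and the smallest adjusted p was 0.0811. Without the centring the unadjusted counts were 1161 higher and 3660 lower, again with 0 calls. For width, limma called 0 regions wider and 0 narrower, with 1243 wider and 1155 narrower at an unadjusted p under 0.05 and a smallest adjusted p of 0.394. The 0 calls do not show that fold or width were alike, since there were only 2 libraries each. The test of width had little power.

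The libraries did group by genotype over these regions. Across the shared regions, which are not independent replicates, Pearson's r of centred log2 fold was 0.887 between the cKO libraries and 0.891 between the wild-type libraries, and 0.816 to 0.842 between genotypes. Both cKO libraries stood above both wild-type libraries at 6912 regions (24.6%) and below both at 6306 (22.5%). Without the centring these counts were 3972 and 10237. Standing above or below refers to centred fold here and later, while the folds printed for single regions are as deposited. Both cKO libraries were wider than both wild-type libraries at 5616 regions (20.0%) and narrower at 5280 (18.8%). At a single region, such a separation has a two-sided exact permutation p of 0.333, the lowest for 2 against 2 libraries. These counts, and those of the same kind below, describe the order of the libraries and are not numbers of changed regions.

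**Figure D3:**
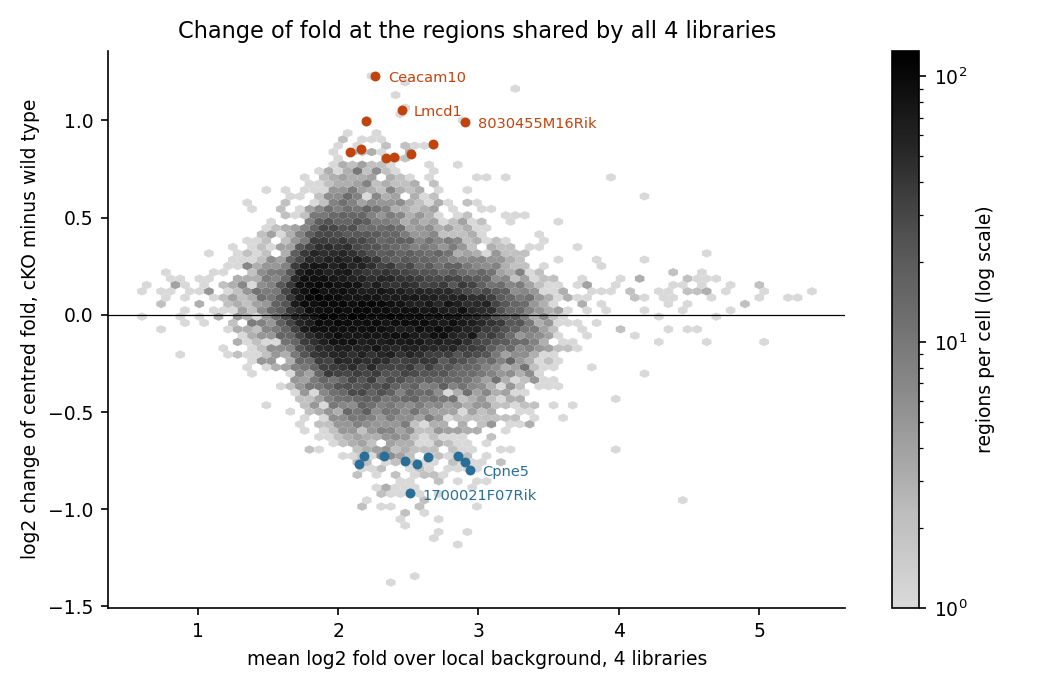
Log2 change of centred fold, cKO minus wild type (vertical axis), against the mean log2 fold of the 4 libraries (horizontal axis) for the 28050 shared regions, shaded by the number of regions per cell on a log scale. Orange and blue points are the 10 gene starts with the largest differences in each direction; none passed an adjusted p of 0.05, and the values at starts reach 1.23 for Ceacam10 and -0.92 for 1700021F07Rik.

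The sign of the difference followed the strength of the region. In the weakest of 10 equal classes of shared regions by mean fold, the median log2 change was 0.08, with 38.5% above both wild-type libraries in both cKO libraries and 10.9% below. In the strongest it was -0.03, with 17.6% above and 28.0% below. The change at gene starts was -0.01 (21.5% above, 24.6% below), against 0.03 elsewhere (26.6% above, 21.2% below), and gene starts were the stronger regions, with median folds of 5.45 and 5.48 in cKO and 5.86 and 5.87 in wild type. The narrower range of fold in cKO, seen in the 90th percentiles above, moved with this pattern, and its part was not tested.

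The gene starts with the largest differences upward in cKO were led by Ceacam10, of the carcinoembryonic antigen family of adhesion molecules. Ceacam10 had folds of 7.78 and 6.58 in cKO and 2.96 and 3.52 in wild type, so the genotypes did not overlap (log2 change 1.23 ± 0.15, SE, limma adjusted p = 0.0864). Its peaks were narrower in cKO, at 182 and 172 bp against 450 and 475 bp in wild type. Lmcd1, a LIM domain cofactor of GATA factors, had folds of 8.44 and 6.97 in cKO and 3.21 and 4.75 in wild type (log2 change 1.05 ± 0.20, SE, limma adjusted p = 0.113). Cyria, a Rac1 interactor, had 5.93 and 5.77 in cKO and 3.28 and 3.58 in wild type. Cryga, a crystallin of the lens, had 4.70 and 6.44 in cKO and 3.26 in each wild-type library, and Kyat3, a kynurenine aminotransferase, 6.35 and 6.72 in cKO and 3.47 and 4.49 in wild type. In all of these the genotypes stood apart.

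The other 5 of the 10 were 8030455M16Rik, Gm5114, Gm21115, Gm4454 and Gm42092, with log2 changes of 0.81 to 1.00. Gm5114, Gm21115 and Gm4454 lie within 1 Mb on chromosome 7 among related predicted genes, so reads could be shared between copies. RNA stood at 6.14 CPM or less in both cKO testis samples for the 6 genes with a value. Over all genes with a start above both wild-type libraries in both cKO libraries the median was 13.9 and 12.1 CPM, and over those below it was 13.7 and 12.3 CPM. None of the 10 passed the adjusted threshold.

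The gene starts with the largest differences downward in cKO were led by 1700021F07Rik. It had 66.8 and 99.5 CPM in cKO testis RNA and folds of 4.21 and 3.86 in cKO and 8.77 and 7.41 in wild type (log2 change -0.92 ± 0.14, SE, limma adjusted p = 0.0970). Gtf2a1l, the germ cell form of a TFIIA subunit, had 4.47 and 4.93 in cKO and 8.96 and 7.60 in wild type (log2 change -0.73 ± 0.13, SE, limma adjusted p = 0.108), with 132 and 175 CPM of RNA. Rxra, a retinoid X receptor, had 4.20 and 4.61 in cKO and 8.24 and 7.60 in wild type (log2 change -0.77 ± 0.12, SE, limma adjusted p = 0.0970). Hhip, a hedgehog-binding decoy, had 3.49 and 3.14 in cKO and 5.97 and 5.96 in wild type. The wild-type values of these 4 starts were all above their cKO values.

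The copine genes Cpne5 and Cpne8, which encode calcium-dependent phospholipid-binding proteins, were also among the 10. Cpne5 had folds of 6.33 and 5.05 in cKO and 12.97 and 8.34 in wild type, and Cpne8 had 5.78 and 5.19 in cKO and 8.10 and 11.3 in wild type. Their wild-type replicates were far apart, and the limma adjusted p-values were 0.180 and 0.138. Zfp385a (a zinc finger protein), 1700081H04Rik, Gm34548 and Gm11691 completed the 10, with log2 changes of -0.76 to -0.73. None of these starts passed the adjusted threshold.

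**Figure D4:**
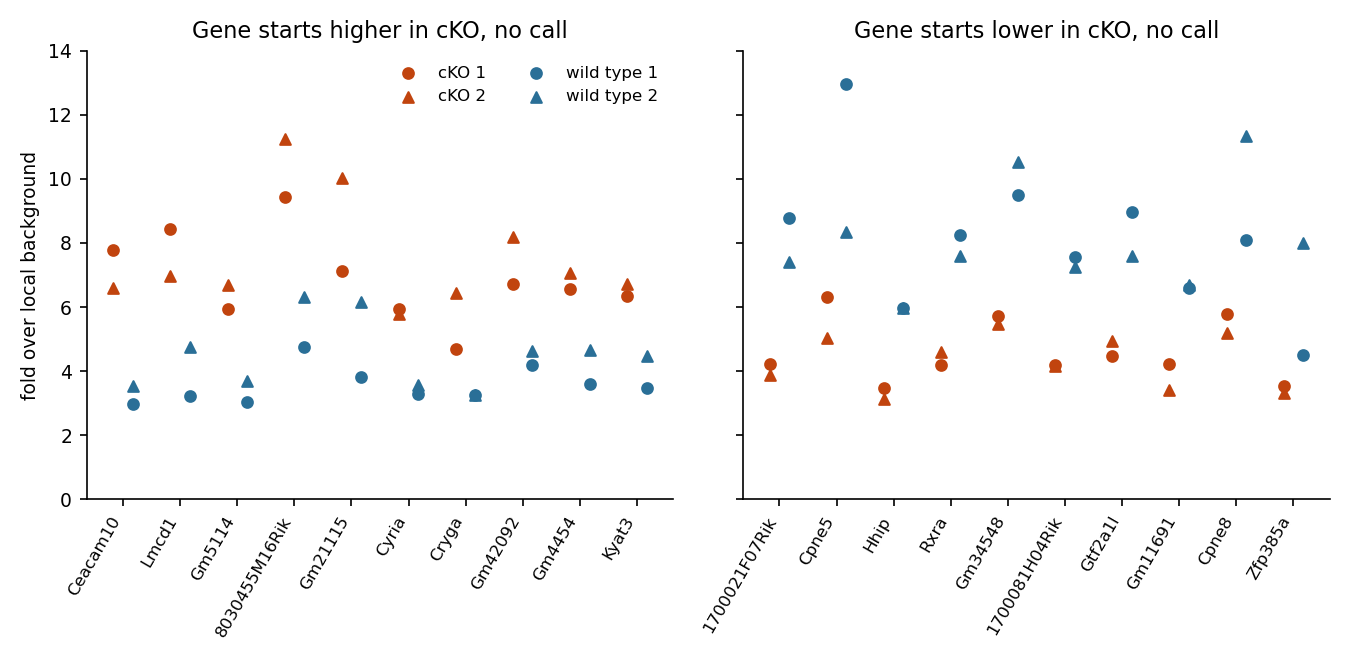
Fold over local background (vertical axis) in each of the 4 libraries at the 10 gene starts with the largest differences in each direction, cKO in orange on the left of each gene and wild type in blue on the right, with circles for replicate 1 and triangles for replicate 2. The genotypes do not overlap at any of the 20 starts, by the rule that chose them, and Cpne5 and Zfp385a show wild-type replicates far apart.

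Differences away from gene starts were as large or larger. The lowest was at chr1:6959772-6960039, outside genes, with folds of 3.39 and 3.01 in cKO and 9.79 and 7.85 in wild type (log2 change -1.38 ± 0.15, SE, limma adjusted p = 0.0841). A region within Mrps9 (a mitochondrial ribosomal protein) had 3.85 and 5.05 in cKO and 9.01 and 10.5 in wild type. Upward, a region outside genes on chromosome 9 (chr9:85076417-85076581) had 16.2 and 12.5 in cKO and 6.50 and 6.89 in wild type. Regions within Stxbp5 (a syntaxin-binding protein) and Smad9 (a BMP signal transducer) had log2 changes of 0.95 and 0.92.

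The 10 lists of germ cell and chromatin genes, chosen with earlier results of these data known, held 185 genes, of which 135 had an annotated autosomal start and 117 of those a shared region, against 12314 of 25748 genes with an annotated start. None of the 117 was called. Their median log2 change was -0.04, with 15.4% above both wild-type libraries in both cKO libraries and 32.5% below. Over all 12314 genes with a shared start the median was -0.01, with 21.4% above and 24.4% below. Those shares are also the background for each list that follows. Stronger regions stood below more often in general, and the part of strength in the lists was not tested. A start in 1 genotype alone was seen for Piwil4 and H1f7, and 10 genes had no peak in any library. Over all 25748 genes with an annotated start, 232 had a start region in both cKO libraries alone and 91 in both wild-type libraries alone. Another 11124 had no peak at a start. Piwil4 and H1f7 are therefore given as single members and not as a result about the lists.

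Of the 14 pachytene cell cycle and spermatocyte genes with a shared start, 8 were below both wild-type libraries in both cKO libraries and 2 above. Their median log2 change was -0.11. Over all genes with a shared start, 24.4% stood below and 21.4% above. Spag6, of the axoneme central pair, had folds of 6.04 and 6.70 in cKO and 7.87 and 8.36 in wild type (log2 change -0.27 ± 0.10, SE, limma adjusted p = 0.280). Ccna1, the meiotic cyclin A1, had 6.96 and 7.097 in cKO and 8.09 and 9.43 in wild type, and Calr3, a testis chaperone of the endoplasmic reticulum, 7.75 and 8.91 in cKO and 10.5 and 10.2 in wild type. Hspa2, the heat shock protein of spermatocytes, stood the other way, with 4.57 and 4.27 in cKO and 4.01 and 3.84 in wild type. Piwil1, the PIWI protein of pachytene piRNAs, also did, with 6.97 and 6.39 in cKO and 6.36 and 5.71 in wild type.

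Of 22 spermatid and flagellum genes with an annotated autosomal start, 12 had a shared start, with a median of -0.14. Of these 7 were below both wild-type libraries in both cKO libraries and 1 above. Over all genes with a shared start the shares were 24.4% and 21.4%. Cfap44 (a cilia- and flagella-associated protein) had 6.09 and 5.92 in cKO and 7.19 and 8.55 in wild type, and Dnah1 (an axonemal dynein heavy chain) had 3.65 and 4.29 in cKO and 5.38 and 5.00 in wild type. Spag16, of the central pair, had 8.40 and 9.75 in cKO and 10.3 and 11.7 in wild type. Tnp1, transition protein 1 of condensing spermatids, was the one above, with 3.89 and 3.33 in cKO and 3.07 and 3.11 in wild type. The start of H1f7, a spermatid linker histone, had folds of 3.54 and 3.36 in cKO and no peak in wild type. Prm2, Prm3 and Tnp2 had no peak in any library.

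Genes of the synaptonemal complex and of recombination stood on both sides of wild type, and none was called. Of 13 synaptonemal complex and axis genes with a shared start, 2 stood above and 2 below, with a median of 0.07, and Sycp1, Sycp2 and Sycp3 had changes of -0.11, 0.00 and 0.12. The central element gene Syce2 had 4.65 and 4.44 in cKO and 5.64 and 5.63 in wild type. Of 16 recombination genes, 1 stood above and 5 below, with a median of -0.08. Psmc3ip, which assists strand exchange, was the one above, with 6.55 and 6.56 in cKO and 6.08 and 5.67 in wild type. Rec114 and Iho1 act in the formation of meiotic double-strand breaks. Rec114 had 5.26 and 5.49 in cKO and 5.88 and 6.71 in wild type, and Iho1 had 7.34 and 8.39 in cKO and 8.92 and 9.84 in wild type.

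In the piRNA pathway 14 genes had a shared start, of which 2 stood above and 2 below, with a median of -0.03. Piwil4, the PIWI protein of fetal germ cells, had no start peak in cKO and folds of 4.55 and 3.88 in wild type, and its RNA stood at 0.33 and 0.32 CPM in cKO testis. Tdrd9, a piRNA helicase, had 4.34 and 4.23 in cKO and 5.56 and 5.34 in wild type. Among 12 transcription regulators of pachytene and spermatids with a shared start, 2 stood above (Tbpl1 and Sox30) and 1 below (Rfx1), with a median of 0.02.

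Among chromatin genes, the 7 ISWI genes with a shared start had a median of -0.00, with Bptf and Baz2a below. Smarca5 stood above by centred fold alone, and its folds as deposited, given earlier, overlapped between genotypes. Bptf, the large subunit of NURF, had 4.38 and 4.67 in cKO and 6.04 and 5.29 in wild type. Of 13 other remodelers, 4 stood above and 5 below. Hells, a remodeler needed for DNA methylation, had 4.84 in each cKO library and 6.69 and 6.48 in wild type (log2 change -0.36 ± 0.11, SE, limma adjusted p = 0.217). Of 11 spermatogonial genes, 3 stood above and 5 below, with a median of -0.06. Dnmt3b, a de novo DNA methyltransferase of that list, had 6.50 and 5.34 in cKO and 10.3 and 8.05 in wild type (log2 change -0.55 ± 0.16, SE, limma adjusted p = 0.196). Of 7 CTCF and cohesin genes, 1 stood above (Wapl, the cohesin release factor) and 2 below (Stag1 and Pds5b), and Ctcf itself had a change of -0.03.

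Pachytene and spermatogonial markers had a shared start more often than somatic and blood markers. Over all 25748 genes with an annotated start, 12314 had a shared start region and 11124 had no peak. The marker lists are short, and a peak at a start is accessibility and not expression, so they do not by themselves place the cells. All 6 pachytene markers with an annotated autosomal start (Piwil1, Ldhc, Pgk2, Ccna1, Hspa2 and Spag6) had a shared region, and so did 5 of 6 spermatogonial markers and 3 of 7 spermatid markers. Of the 26 somatic and blood cell markers with such a start, 17 had no peak in any library and 5 had a shared region (Cldn11, Ctsl, Cyp11a1, Insl3 and Acta2). Their summed fold was 26.5 and 38.6 in cKO and 26.4 and 26.1 in wild type. Cd3e, of the T cell receptor complex, had folds of 4.06 and 4.69 in cKO and no peak in wild type, while Ptprc, Cd3d, Lyz2 and all 5 haemoglobin and erythroid starts had none in any library. Lck (T cells), C1qb (macrophages) and Lhcgr (Leydig cells) had a peak in cKO replicate 2 alone. Kit, a spermatogonial marker, had 4.55 and 5.57 in cKO and 4.18 and 4.06 in wild type (log2 change 0.37 ± 0.14, SE, limma adjusted p = 0.286). Of the 5 spermatogonial markers with a shared region, 3 had a change above 0. In both cKO libraries 2 of them stood above both wild-type libraries and 0 below. The wider list of 11 spermatogonial genes with a shared start had 3 above and 5 below. The part of somatic, blood or spermatogonial cells in the results was not tested.

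Histone genes of the chromosome 13 cluster stood out after their values were seen, and are given as a description. At 37 shared start regions of the cluster, the median log2 change was 0.13. Of these, 21 (56.8%) stood above both wild-type libraries in both cKO libraries and 3 (8.11%) below, and 18 (48.6%) were wider and 0 narrower. Over all shared gene starts 21.5% stood above, 24.6% below, 21.8% were wider and 18.2% narrower. Some of the 21 overlapped wild type in fold as deposited. Median folds of the cluster starts were 4.26 and 4.13 in cKO and 3.94 and 4.19 in wild type, lower than over all shared gene starts. The part of their low fold was not tested. H3c11 had folds of 3.32 and 3.56 in cKO and 2.38 and 2.23 in wild type (log2 change 0.66 ± 0.09, SE, limma adjusted p = 0.0864). The start region over H1f4, which also lies near a start annotated to H2bc6, had 4.73 and 4.88 in cKO and 3.03 and 3.55 in wild type. A separate start region over H2bc6 itself had 4.34 and 3.27 in cKO and 3.90 and 4.53 in wild type, so the genotypes overlapped there. H3c4 had 3.46 and 3.55 in cKO and 2.43 and 2.63 in wild type, above in both cKO libraries. H1f6, the linker histone H1t of spermatocytes, lies in the same cluster and stood the other way, with 3.30 and 3.36 in cKO and 4.34 and 3.96 in wild type. At 15 histone start regions elsewhere the median was -0.00, with 4 above and 5 below. The cluster holds several histone types, with related copies within a type, and how the authors placed reads among copies was not given.

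Few stretches of chromosome moved as a whole. Of 380 windows of 5 Mb with at least 20 shared regions, 371 had a median log2 change within 0.1 of 0. The lowest was chromosome 14 from 40 to 45 Mb, at -0.20 over 49 shared regions, a stretch that also held 7.50% regions in both cKO libraries alone and 5.63% in both wild-type libraries alone. It is rich in predicted genes with related copies. The highest was chromosome 1 from 20 to 25 Mb, at 0.13 over 35 shared regions. Whole chromosomes had medians of -0.01 to 0.03.

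The regions were then looked up in the peak lists of cKIT+ cells, which the choice of regions did not use. These lists held 124415 and 119128 autosomal peaks in cKO and 43672 and 110176 in wild type, so that of wild-type replicate 1 was short. Of regions in both 4C-sorted cKO libraries alone, 46.6% had a peak in at least 1 cKIT+ library. Of regions in both 4C-sorted wild-type libraries alone, 34.6% did. Over all regions the share by list was 45.9% and 42.7% in cKIT+ cKO cells and 29.7% and 40.1% in cKIT+ wild-type cells, above both classes in every list. By library, the shares for regions of cKO alone were 39.9% and 36.1% in cKIT+ cKO cells and 20.2% and 31.6% in cKIT+ wild-type cells. For regions of wild type alone they were 26.8% and 23.4% in cKIT+ cKO cells and 10.4% and 20.97% in cKIT+ wild-type cells. The order held in each of the 4 cKIT+ lists, whichever their genotype. Shared regions had a cKIT+ peak more often, at 84.3% and 81.5% in cKO and 67.3% and 77.8% in wild type.

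Width at shared regions moved with the presence of cKIT+ peaks. The 3313 shared regions without a peak in any cKIT+ library were narrower in both cKO libraries at 24.96% and wider at 14.2%, against 18.8% and 20.0% over all shared regions. The 17584 with a peak in all 4 cKIT+ libraries were narrower at 16.7% and wider at 22.1%. The narrower share was 23.4%, 22.2% and 19.9% with a peak in 1, 2 and 3 of them. Median widths without a cKIT+ peak were 315 and 362 bp in cKO and 343 and 378 bp in wild type. With a peak in all 4 they were 704 and 738 bp in cKO and 693 and 717 bp in wild type. The ratio of the 2 medians was 0.447 and 0.491 in cKO and 0.495 and 0.527 in wild type, lower in each cKO library than in either wild-type library (log2 difference -0.12, exact permutation p = 0.333). Omitting cKO replicate 1 gave a difference of -0.059, omitting cKO replicate 2 gave -0.19 and omitting wild-type replicate 2 gave -0.079. With peaks from a −log10 q of 5 upward it was -0.25. At the 337 gene starts without a cKIT+ peak, fold was below both wild-type libraries in both cKO libraries at 32.3% and above at 20.5%, against 24.6% and 21.5% over all shared gene starts.

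**Figure D5:**
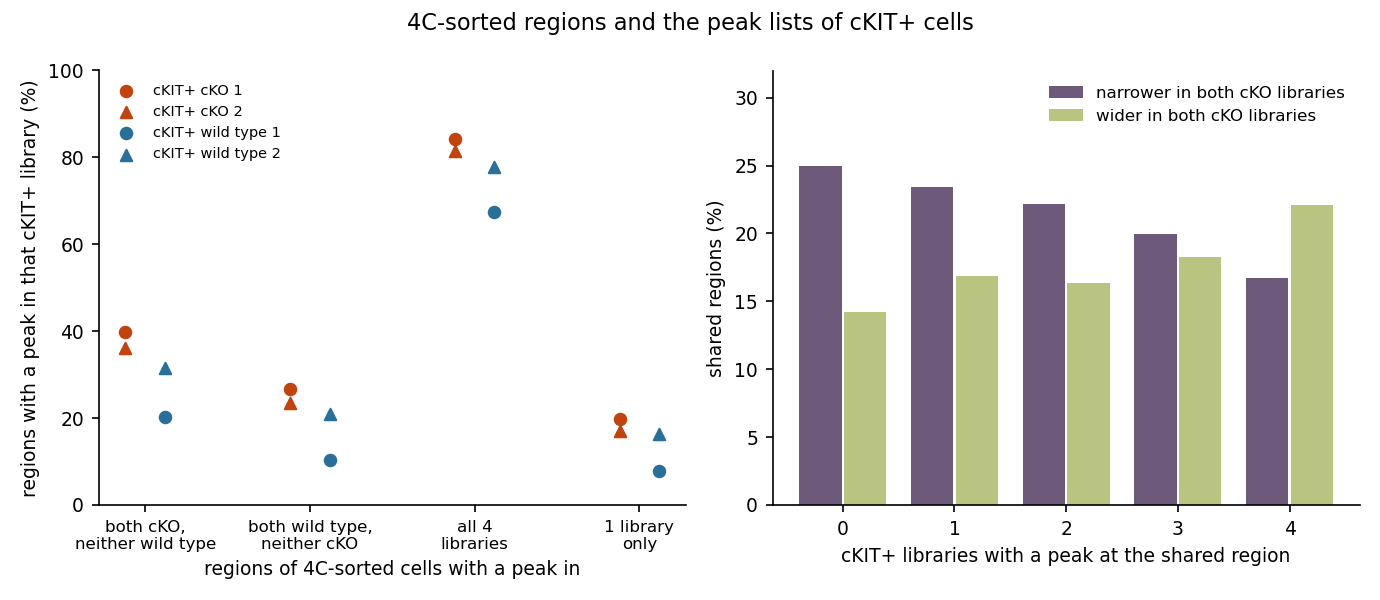
Left, percent of 4C-sorted regions of each class with a peak in each cKIT+ library (cKO in orange, wild type in blue, circles replicate 1, triangles replicate 2). Right, percent of shared 4C-sorted regions that were narrower or wider in both cKO libraries than in both wild-type libraries, by the number of cKIT+ libraries with a peak there; 24.96% were narrower and 14.2% wider where there was none, against 16.7% and 22.1% where all 4 had one.

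Promoter sequence separated accessible from closed starts and separated the directions little. Windows with a shared region had a median GC content of 61.7% and 21 CpG, against 46.3% and 3 CpG where no library had a peak. Windows with a peak in 1 genotype alone had 6 CpG in both cases, with a GC content of 52.3% for cKO and 53.2% for wild type. Between windows of starts above and below both wild-type libraries in both cKO libraries, GC content was 61.3% and 62.0%. An ETS site was found in 15.0% of the windows above and 18.5% of those below, and an SP/KLF site in 48.1% and 45.8%. Shared starts without a cKIT+ peak had 4 CpG and held the letters of the MYB motif in 39.1% of windows, against 25.96% of all windows and 19.6% of shared starts with a peak in all 4 cKIT+ libraries. Windows without a peak in any library held it in 31.4%. GC content was 49.7% at the shared starts without a cKIT+ peak and 46.3% at windows without a peak.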

How the data were processed

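Peaks were called by the authors in each library on mm10, and the submitters' processing notes name cutadapt, Bowtie2 and MACS2 without versions or roles. Each deposited peak has a score, a fold (the ratio to local background), and a −log10 p and −log10 q, all as the authors' caller wrote them. Read numbers were not analysed here, so depth is unknown and no intervals are given. The deposited RNA files hold raw UMI counts from Cell Ranger 7.1.0 and 9.0.1, per the file headers. UMIs were summed over barcodes with at least 1000 UMIs (8875 and 14858 barcodes, 48489579 and 113700736 UMIs) and scaled to CPM.

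Autosomal peaks of the 4 lists were merged at 1 bp. Where a library had several peaks in a region, fold was their width-weighted mean, and width was the number of bases covered. log2 fold was centred on each library's median over shared regions, and log2 width was not centred. Both were tested with limma 3.58.1 in R 4.3.3 with a variance trend, and p-values were adjusted over all 28050 regions by Benjamini-Hochberg. The fits were tested on simulated data: changes in fold were mostly called, while changes in width had the right sign and were not called. Power for fold differences of the size seen in these libraries was not tested. Library values were tested by exact permutation. Gene starts and promoters came from RefSeq GRCm38.p6, the assembly of mm10, with a window of 500 bp either side. Python 3.11.15, numpy 2.4.6, pandas 2.3.3 and scipy 1.17.1 were used.

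Named regions are the 10 largest differences in each direction among regions whose genotypes did not overlap, at gene starts and elsewhere, since none passed the threshold, and the 10 regions with the highest mean fold in 1 genotype alone. Some of these are not reported here. The members and lists were chosen with earlier results of these data known, and the histone genes, cKIT+ width ratio and cKIT+ shares were examined after seeing the data. Alternatives were stronger peaks, lists of equal length, other merging, overlap, centring and scaling, a replicate block, and leaving out each library.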

Additional observations from a re-analysis of the deposited data

How the results depend on the processing

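Some library-wide values turned without the weak peaks. With only peaks of −log10 q of at least 5, the log2 difference between cKO and wild type was -0.081 for peak number, -0.077 for covered length, 0.012 for median width and 0.047 for the share at gene starts. With lists of equal length it was 0.00245 for median width and 0.028 for the share at gene starts. Median fold at shared regions kept its direction, at -0.11 with the stronger peaks and -0.082 with lists of equal length, and covered length kept its own with equal lists (0.0097). Leaving out 1 library gave 0.014 (without cKO replicate 2) to 0.16 (without cKO replicate 1) for covered length, -0.13 to -0.045 (without cKO replicate 1) for median width and -0.11 to -0.053 (without cKO replicate 2) for the share at gene starts. Regions in both cKO libraries alone numbered 780 and those in both wild-type libraries alone 1436 with the stronger peaks, and their shares with a cKIT+ peak were 80.1% and 62.9%. The cKO share was 48.1% with lists of equal length. Both cKO libraries stood above both wild-type libraries in fold at 3334 regions and below at 2845, and were wider at 2668 and narrower at 2599, with the stronger peaks. Fold as deposited, without centring, shifted the median change by -0.07 and gave 3972 regions above and 10237 below. Leaving out each library in turn asks less of a pattern and gave 5989 to 16316 regions of cKO alone, 3655 to 11894 of wild type alone, 10291 to 10940 above, 9461 to 10566 below, 9058 to 10996 wider and 8555 to 10475 narrower. Omitting either replicate of either genotype moved each of these counts well beyond its reported value, least for regions of cKO alone without wild-type replicate 1 (5989) and for regions above without cKO replicate 1 (10291). limma called 0 regions in these fits too, where the lone library is assumed to vary like the other genotype, so they say nothing about stability. It called 1 region lower in cKO with the highest fold of a library's peaks (adjusted p = 0.0238), with lists of equal length (adjusted p = 0.0248) and with the stronger peaks (adjusted p = 0.0168). This was chr11:121981523-121982545, with folds of 12.1 and 12.5 in cKO and 29.2 and 15.0 in wild type, and an adjusted p of 0.283 in the design reported. Among 97 named regions, 1210 of 1214 alternative values kept their direction and their side of the threshold. These regions were chosen because their genotypes did not overlap, so leaving out a library or adding the replicate block could not turn their direction. None was called in the design reported, so the count of kept values does not measure stability. The exceptions were Tdrd7 (-0.00248) and Smarca4 (-0.0108) without centring, and Egr4 with the highest fold (0.087) and with the stronger peaks (0.12). The cause of these shifts was not tested. Replicate numbers did not pair the libraries (correlation of deviations 0.024 for fold), and with the replicate block limma called 0 regions (smallest adjusted p 0.0796) and the exact permutation p for peak number was 0.5. Depth is unknown, so a peak absent from a list cannot be told apart from one missed at lower depth.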
